A study of Mus musculus with 8 samples.

Results

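The 9 genes described here, Sqle, Lss, Cyp51, Tm7sf2, Sc4mol, Nsdhl, Hsd17b7, Ebp and Dhcr7, encode enzymes that carry squalene to cholesterol. They were taken by gene symbol from the authors' table of array results, where each has a single transcript cluster, the probe group of this array, among 41345 clusters in all. Sc4mol is the older symbol of Msmo1. The genes were selected on their fold change between the mating groups as well as on their place in the pathway, so that difference, with its errors and calls, is given for them as a description and supports nothing further.

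The samples were endometrial RNA pools from CBA x C57Bl/6 F1 females killed 8 h after mating with Balb/c males. One group of females mated with Intact males, which exposes the tract to seminal fluid per the labels, and the others mated with SVX/VAS males, which does not. The labels do not expand SVX or VAS. Each group was measured on 4 arrays of the type Affymetrix Mouse Gene 2.0 ST. Every array held RNA of 4 females, out of 16 in the group, so it shows the average of its pool and not the spread between animals. All females were placed with males in the night that followed proestrus. Mating was followed on video in both groups, and a plug was looked for only after Intact males, per the labels. At collection, the endometrium was scraped from the opened uterus with the myometrium discarded. Values are log2 expression as the authors deposited them. A difference of 1 on this scale is a doubling, and each cluster is compared with itself across arrays.

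Cells build cholesterol from acetyl-CoA through mevalonate and isoprenoid units to squalene, which these 9 enzymes oxidise, close into the sterol ring system and trim to cholesterol. Transcription of the pathway is driven by SREBP-2, a membrane-bound factor released from the endoplasmic reticulum when sterols run low and held back by Insig proteins when they are plentiful. NF-Y, which binds CCAAT, and Sp1, which binds GC-rich boxes, are known partners of SREBP at these promoters. Cholesterol serves membranes and is the raw material of steroid hormones.

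After mating with Intact males, 7 of the 9 transcripts, Sqle, Lss, Cyp51, Sc4mol, Nsdhl, Hsd17b7 and Dhcr7, were 1.72-fold to 3.07-fold higher than after mating with SVX/VAS males. In each of these 7, all 4 Intact arrays lay above all 4 SVX/VAS arrays, a separation found in that direction for 3.37% of all clusters. The opposite separation was found for 4.81% of clusters and none of the 9. The same 7 met the submitters' criteria, a change of 1.5-fold or more and an unadjusted p below 0.05. Of all clusters, 0.733% met them on the higher side, 1.12% on the lower side and 1.86% on either. Tm7sf2 and Ebp neither separated nor met the criteria. The median log2 fold change of the 9 was 0.94, beside 0.00 over all clusters. These counts restate the contrast on which the genes were selected, and nothing is read from their excess over the background.

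Squalene epoxidase, encoded by Sqle on chromosome 15 of the file's annotation, adds the first oxygen to squalene and is a control point of the pathway. Sqle measured 8.89, 8.73, 8.39 and 8.99 on the Intact arrays, against 7.19, 7.32, 7.25 and 7.31 on the SVX/VAS arrays. The SVX/VAS arrays were packed within 0.13 of each other and the lowest Intact array stood 1.07 above the highest of them, the widest separation among the 9. The fold change was 2.79 (log2 1.48, SE 0.13, 95% interval 2.23 to 3.50 as a fold). Lanosterol synthase, encoded by Lss on chromosome 10, folds the epoxide into lanosterol. Lss measured 6.65, 6.53, 6.63 and 7.05 on the Intact arrays and 5.70, 5.83, 5.92 and 6.27 on the SVX/VAS arrays. It had the narrowest separation of the 7, with 0.25 between the lowest Intact and the highest SVX/VAS array. Lss was 1.72-fold higher (log2 0.79, SE 0.17, 95% interval 1.29 to 2.30 as a fold).

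Cyp51 on chromosome 5 encodes the cytochrome P450 that removes a methyl group from lanosterol. Its arrays read 8.14, 8.27, 7.70 and 8.86 for Intact and 6.33, 6.68, 6.73 and 6.75 for SVX/VAS. Cyp51 had both the largest fold change of the 9, 3.07 (log2 1.62, SE 0.26, 95% interval 1.98 to 4.77 as a fold), and the widest spread within the Intact group (SD 0.48, n = 4, against SD 0.20, n = 4, in SVX/VAS). Among all 41345 clusters, ordered by the log2 difference, it ranked 25th, Sqle 31st, Sc4mol 38th and Hsd17b7 41st. Tm7sf2 on chromosome 19 encodes a reductase that saturates the double bond left by that demethylation. Tm7sf2 measured 6.75, 6.92, 7.02 and 7.00 after Intact mating, against 6.35, 6.69, 6.84 and 6.65 after SVX/VAS mating, and the groups overlapped by 1 array on each side. The fold change was 1.22, with a 95% interval of 0.996 to 1.50 (log2 0.29, SE 0.12).

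Sc4mol, Nsdhl and Hsd17b7 encode the oxidase, the dehydrogenase and the ketoreductase that together strip the remaining pair of methyl groups from the sterol ring. Sc4mol on chromosome 8 read 8.37, 8.28, 7.78 and 8.67 on the Intact arrays, against 6.70, 6.94, 6.72 and 7.18 on the SVX/VAS arrays, a fold change of 2.62 (log2 1.39, SE 0.22). Nsdhl on the X chromosome read 8.01, 8.12, 7.76 and 8.34 on the Intact arrays, against 7.08, 7.14, 7.08 and 7.26 on the SVX/VAS arrays, a fold change of 1.89 (log2 0.92, SE 0.13). Hsd17b7 on chromosome 1 read 6.65, 6.70, 6.14 and 7.06 on the Intact arrays, against 5.25, 5.31, 5.50 and 5.17 on the SVX/VAS arrays, a fold change of 2.52 (log2 1.33, SE 0.20). Intact array 3 was the lowest and Intact array 4 the highest of its group for all 3 genes, and the groups did not overlap. The 95% intervals as folds were 1.82 to 3.78 for Sc4mol, 1.52 to 2.35 for Nsdhl and 1.78 to 3.55 for Hsd17b7.

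Ebp, also on the X chromosome, encodes the isomerase that shifts a double bond within the sterol nucleus. Ebp read 8.21, 8.33, 8.06 and 8.69 on the Intact arrays, against 8.33, 8.54, 8.53 and 8.35 on the SVX/VAS arrays. It was the 1 gene of the 9 with a lower mean after Intact mating, 1.08-fold lower (log2 -0.11, SE 0.15), and its groups overlapped widely. The 95% interval ran from 0.72 to 1.18 as a fold. Dhcr7 on chromosome 7 encodes 7-dehydrocholesterol reductase, whose product is cholesterol itself. Dhcr7 read 6.69, 6.98, 6.79 and 7.37 on the Intact arrays, against 6.26, 5.98, 6.18 and 5.66 on the SVX/VAS arrays. It was 1.91-fold higher (log2 0.94, SE 0.20, 95% interval 1.36 to 2.70 as a fold) with no overlap between the groups.

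**Figure D1:**
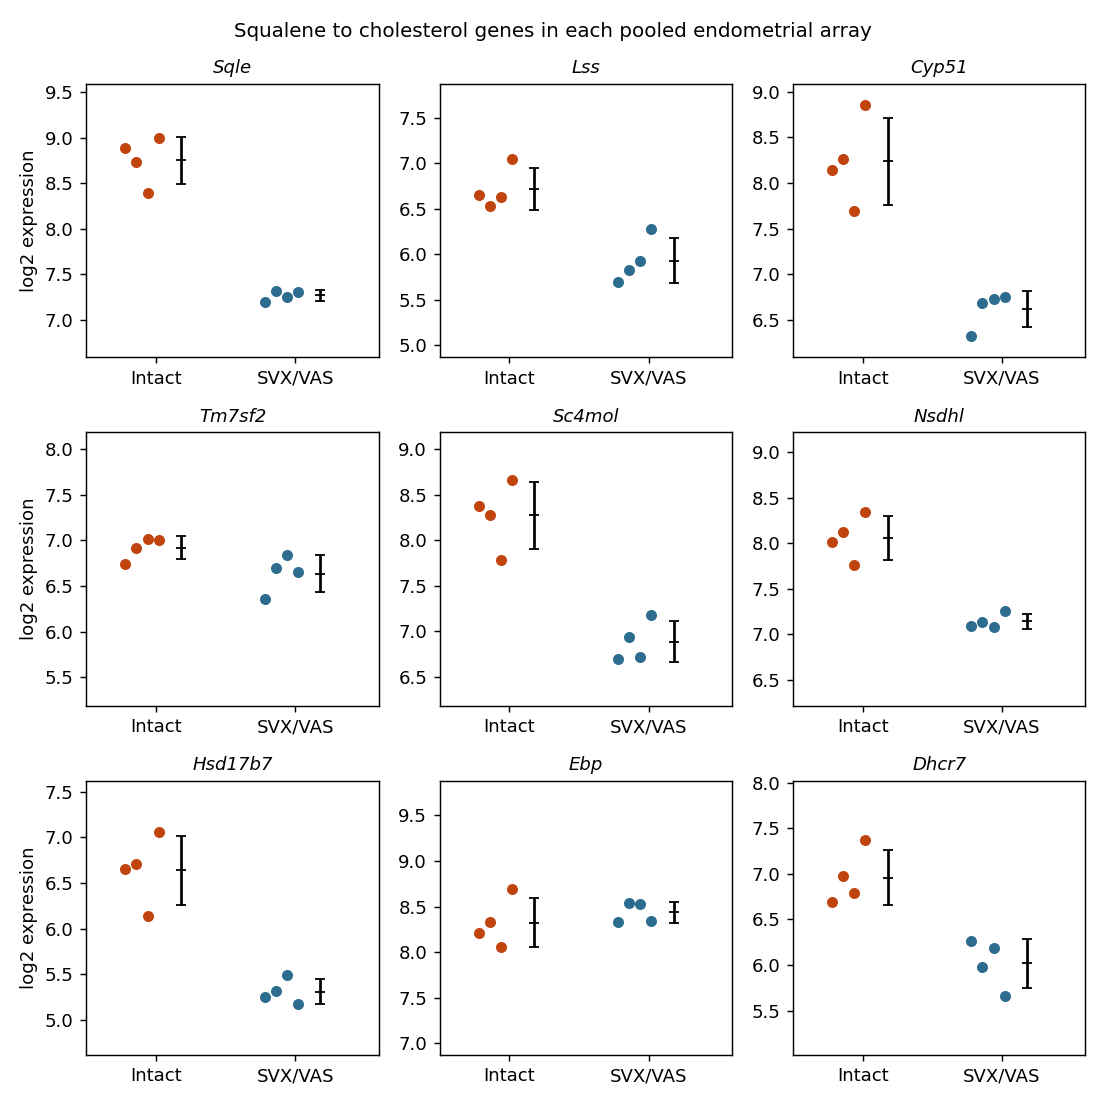
Log2 expression of the 9 squalene to cholesterol genes on each array (points, Intact left and SVX/VAS right), with the group mean and SD of 4 arrays beside the points; every panel spans 3 log2 units. The groups separate in 7 panels and overlap for Tm7sf2 (6.75 to 7.02 in Intact, 6.35 to 6.84 in SVX/VAS) and Ebp (8.06 to 8.69 in Intact, 8.33 to 8.54 in SVX/VAS).

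In the limma fit over all 41345 clusters, 21 were called higher at a Benjamini-Hochberg adjusted p under 0.05, which is 0.0508%, and 13 lower, 0.0314%, together 0.0822%. Sqle was among the 21 and the other 8 genes were not. The fit used the contrast on which the genes were selected, so nothing is read from this count, which also depended on single arrays and on the setting. Without Intact replicate 3 it was 5, where 50 of the 41345 clusters were called. It was 0 without Intact replicate 1 or 2 or SVX/VAS replicate 1, 3 or 4. In those 5 limma fits 7 or 8 of the genes had an unadjusted p under 0.05, as did 10.1% to 10.5% of all clusters. The count of genes called was also 0 in limma with the replicate number as a block and by the methods' own test. At an unadjusted p under 0.05 the block fit had 8 of the genes, beside 11.2% of all clusters. The methods' test had 7, beside 12% of all clusters. Where only clusters above the median level were tested, limma called 7 of the genes and 358 of 20672 clusters.

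Promoter sequences are shown for 4 of the genes to set the 3 with the highest fold changes in the RefSeq promoter table, Cyp51, Sc4mol and Hsd17b7, beside Ebp. RefSeq promoters of assembly GRCm38.p6 were held for 8 of the 9 genes, not Sqle, with 3 windows for Dhcr7 and 1 for each other gene. Each sequence below is the 250 bases before the annotated start, 5′ to 3′ on the gene's strand, with the NF-Y letters CCAAT, or ATTGG on the opposite strand, in capitals.
Cyp51 chr5:4104698-4104947 (- strand): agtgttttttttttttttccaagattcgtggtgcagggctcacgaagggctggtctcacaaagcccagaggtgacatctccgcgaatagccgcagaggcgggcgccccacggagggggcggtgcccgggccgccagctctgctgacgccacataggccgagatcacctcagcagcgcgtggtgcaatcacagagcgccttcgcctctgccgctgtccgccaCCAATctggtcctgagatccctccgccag
Sc4mol chr8:64733579-64733828 (- strand): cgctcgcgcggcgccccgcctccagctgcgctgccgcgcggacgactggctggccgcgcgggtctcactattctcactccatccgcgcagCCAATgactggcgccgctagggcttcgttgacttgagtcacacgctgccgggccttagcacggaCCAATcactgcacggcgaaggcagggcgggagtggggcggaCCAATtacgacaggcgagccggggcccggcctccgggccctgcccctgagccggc
Hsd17b7 chr1:169969206-169969455 (- strand): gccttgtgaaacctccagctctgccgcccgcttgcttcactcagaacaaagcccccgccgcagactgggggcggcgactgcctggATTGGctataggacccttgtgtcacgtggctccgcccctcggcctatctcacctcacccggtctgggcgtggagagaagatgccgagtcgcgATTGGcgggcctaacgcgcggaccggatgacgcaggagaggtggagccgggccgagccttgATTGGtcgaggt
Ebp chrX:8193513-8193762 (- strand): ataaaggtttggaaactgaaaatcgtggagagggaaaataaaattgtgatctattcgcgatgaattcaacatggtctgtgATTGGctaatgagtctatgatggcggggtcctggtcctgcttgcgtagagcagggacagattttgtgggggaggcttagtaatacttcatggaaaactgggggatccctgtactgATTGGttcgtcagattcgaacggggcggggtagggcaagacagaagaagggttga

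The CCAAT letters occurred once in the Cyp51 window, beginning 29 bases before the start, at 3 places each in Sc4mol (160, 96 and 55 bases) and Hsd17b7 (165, 73 and 12 bases), and at 2 places in Ebp (170 and 55 bases). Across the set all 8 genes held CCAAT in at least 1 window, 8 of 10 windows, and the same was true of GGGCGG, the Sp1 letters, in 9 of 10 windows. Both strands were searched, and no match of CCAAT shared a base with one of GGGCGG in these windows. Over all 32851 windows of this length in the table, 33.8% held CCAAT and 32.7% held GGGCGG, and over the 21262 windows of protein-coding genes the shares were 35.4% and 42.6%. Base composition differed as well, with 44.8% to 73.6% G and C in the 10 windows and a median of 52.4% over all windows. Of the sterol regulatory letters, TCACNCCAC was in 0 of the 10 windows (1.05% of all windows) and ATCACGTGA in 0 of 10 (0.277% of all windows), which says only that these exact letters are not in these 250 bases.

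Other genes of cholesterol synthesis were taken from pathway lists, which were drawn up with earlier results of these data known. In the mevalonate arm, which leads from acetyl-CoA to farnesyl units, 5 of 10 measured genes rose in the limma fit after Intact mating (0.0508% of all clusters did), 0 fell and 5 were not called, with a median log2 fold change of 0.82. Among them were Idi1, the isopentenyl diphosphate isomerase (2.78-fold, log2 1.48, SE 0.08, limma adjusted p = 0.0046), Hmgcs1, the HMG-CoA synthase (2.63-fold, SE of log2 0.15), Fdps, the farnesyl diphosphate synthase (2.21-fold, SE of log2 0.15), and Mvd, the diphosphomevalonate decarboxylase (2.10-fold, SE of log2 0.09). Hmgcs1, Fdps and Mvd had limma adjusted p-values of 0.020, 0.034 and 0.016. Idi1 was called whichever single array was left out, and Hmgcs1, Fdps and Mvd were not.

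Of the remaining enzymes of the post-squalene steps and their partners, 16 were measured. Of these 16 measured, 0 were called by limma (7 had an unadjusted p under 0.05, 5 higher and 2 lower) and 3 met the submitters' criteria on the higher side. Over all clusters 11.9% had an unadjusted limma p under 0.05, 5.13% higher and 6.78% lower, and 0.733% met the criteria on the higher side. Fdft1, the squalene synthase that feeds Sqle, was 2.02-fold higher (log2 1.01, SE 0.19, limma adjusted p = 0.073), with 9.10, 9.27, 8.96 and 9.59 on the Intact arrays and 7.95, 8.40, 8.05 and 8.48 on the SVX/VAS arrays. Sc5d, the desaturase between Ebp and Dhcr7, was 1.59-fold higher (SE of log2 0.21, limma adjusted p = 0.21) and 0610007P14Rik was 1.57-fold higher (SE of log2 0.16, limma adjusted p = 0.15). Lbr, a lamin-binding protein that has the same sterol reductase activity as Tm7sf2, differed by 1.05-fold (log2 0.07, 95% interval -0.20 to 0.35). Tm7sf2, Lbr and Ebp of the late pathway had log2 differences between -0.11 and 0.29. Of the genes around them, Cyp51, Sc4mol, Nsdhl, Hsd17b7 and Dhcr7 had values from 0.92 to 1.62. Sc5d, the step after Ebp, had 0.67, and its groups overlapped.

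**Figure D2:**
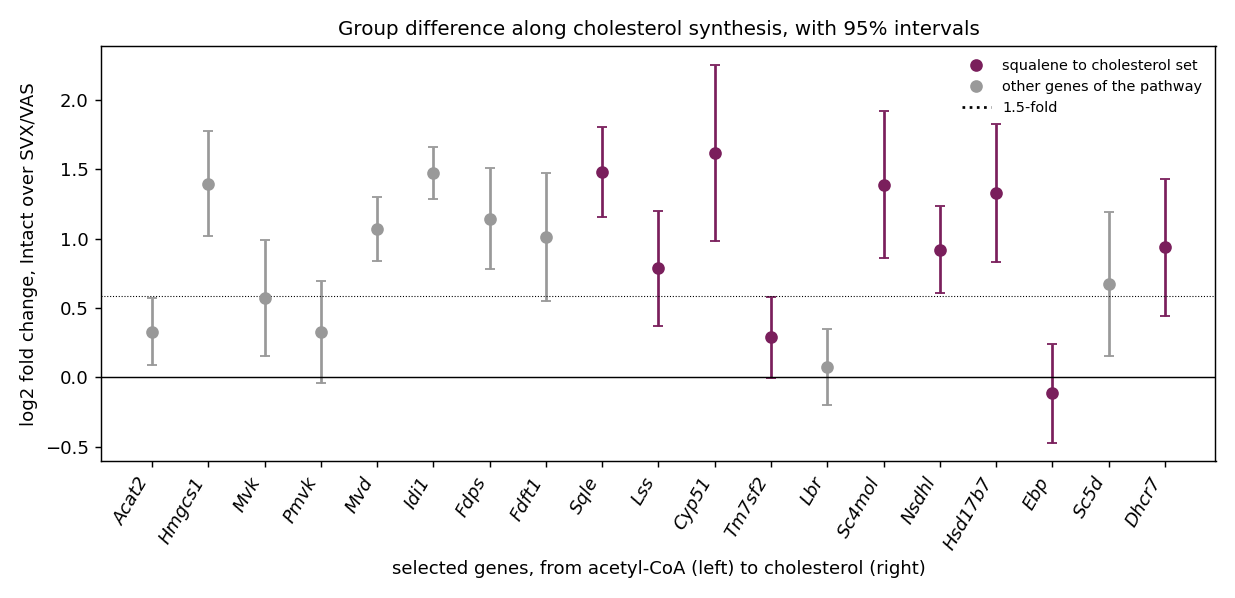
Log2 fold change, Intact over SVX/VAS, with 95% intervals (6 residual degrees of freedom, 4 arrays a group) for selected genes in the order of the pathway from acetyl-CoA to cholesterol; the 9 genes of the set are purple and other genes grey. The values run from 1.62 for Cyp51 to -0.11 for Ebp. Low values at Tm7sf2 (0.29), Lbr (0.07) and Ebp stand between higher ones, as does that of Pmvk (0.33) in the mevalonate arm. Acat2 at the left end is also low (0.33), and Sc5d, beside Ebp, is at 0.67.

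Among the regulators of the pathway, Insig1, which retains SREBP in the endoplasmic reticulum, was 1.69-fold higher (SE of log2 0.15, limma adjusted p = 0.099) and met the submitters' criteria. Srebf2, the gene of SREBP-2, was 1.46-fold higher (SE of log2 0.13, limma adjusted p = 0.15) and Srebf1 1.16-fold higher (SE of log2 0.09, limma adjusted p = 0.46). Over the mevalonate, post-squalene, SREBP, LXR and fatty acid lists together, limma called 6 of 66 genes, all higher, beside 0.0822% of all clusters in either direction. The count fell to 1, Idi1, without Intact replicate 1 or 2 or SVX/VAS replicate 1, 3 or 4, and to 3 without SVX/VAS replicate 2.

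A further question was how the 9 genes varied between pools of the same mating group, which does not use the difference between the groups. Each value was set against the mean of its own group. On Intact array 4 all 9 genes lay above the group mean, by 0.35 on average on the log2 scale, and 8 of them had their highest Intact value there. On Intact array 3 only Tm7sf2 lay above the mean, the average deviation was -0.29, and 6 genes had their lowest Intact value. Over all clusters, Intact array 4 was the highest of its group for 26.4% and Intact array 3 the lowest for 27.3%. In SVX/VAS the average deviation ran from -0.12 on array 1 to 0.06 on array 3. The SD of the Intact group was larger than that of SVX/VAS for 7 of the 9 genes, beside 60.6% of all clusters.

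Across the 8 arrays the median Pearson correlation of these deviations over the 36 pairs of genes was 0.66, and 12 pairs exceeded 0.8. Sc4mol and Nsdhl (r = 0.93), Cyp51 and Nsdhl (r = 0.93) and Cyp51 and Ebp (r = 0.92) were the closest pairs. Each gene was also set against the mean of the other 8, and Cyp51 had the highest value (r = 0.99), followed by Ebp (0.92), Nsdhl (0.89), Hsd17b7 (0.86), Sqle (0.80), Sc4mol (0.78), Lss (0.58), Dhcr7 (0.39) and Tm7sf2 (0.19). The other 41336 clusters had a median correlation of -0.01 with the mean of the 9, with 5% below -0.71 and 5% above 0.75, and 3.37% of them exceeded 0.8. Ebp varied from pool to pool together with Cyp51, Nsdhl and Hsd17b7 although its group means differed by only 1.08-fold. With only 8 arrays these correlations are descriptive, and how the arrays were normalized to each other was not stated. The median over pairs fell to 0.34 without Intact replicate 4, and to 0.26 without Intact arrays 3 and 4 together, a setting added after the data were seen.

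**Figure D3:**
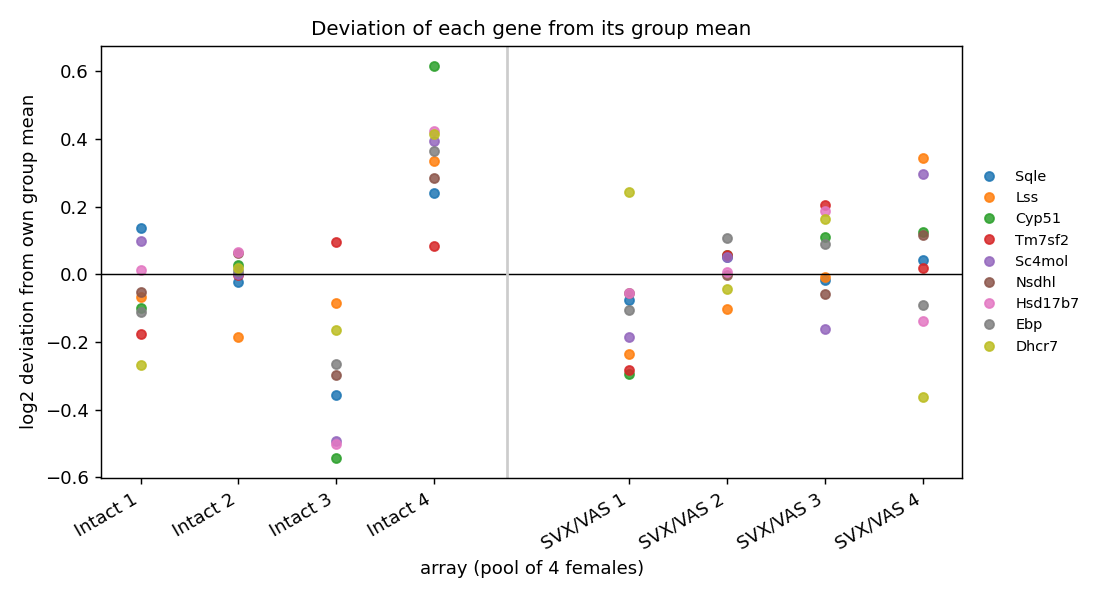
Deviation of each of the 9 genes (coloured points) from its own group mean, in log2 units, on the 4 Intact and the 4 SVX/VAS arrays; each array is a pool of 4 females. All 9 points lie above 0 on Intact array 4, and 8 of 9 lie below 0 on Intact array 3. The SVX/VAS arrays show smaller average deviations than Intact arrays 3 and 4, but not all smaller than Intact arrays 1 and 2.

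Other lipid genes shared this variation in part. The correlation with the mean of the 9 was 0.93 for Insig1, 0.88 for Mvd, 0.84 for Sc5d, 0.84 for 0610007P14Rik, 0.80 for Fdft1 and 0.77 for Idi1, but -0.53 for Mvk, the mevalonate kinase, a gene singled out after its value was seen, and 0.32 for Lbr. The medians were 0.57 over 10 mevalonate genes, 0.35 over 16 other post-squalene genes 0.37 over 15 genes of SREBP regulation and sterol uptake, 0.53 over 13 fatty acid genes and -0.11 over 12 genes of the LXR list. The named genes most like the mean of the 9 were C2 (r = 0.99), 9130011E15Rik (0.99), Kdm6a (0.99), Cdc42bpb (0.99), Bend4 (0.98), Tecr (0.98), Adam24 (0.98) and Mrps7 (0.98). They were picked among the clusters with a gene symbol, 27037 with the 9 genes counted. Values this high were the extreme of that many clusters over 8 arrays. Tecr, which encodes an enoyl-CoA reductase of fatty acid elongation, was 1.41-fold higher after Intact mating (log2 0.49, SE 0.07, limma adjusted p = 0.11).

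Markers fixed for the labelled tissue and for other cells it could hold were averaged on each array, and each list is compared only with itself. The 10 epithelial markers averaged 9.71 to 10.05 on the Intact arrays and 9.76 to 9.97 on the SVX/VAS arrays, and the 10 stromal markers 7.50 to 8.31 in Intact and 7.87 to 8.46 in SVX/VAS. Markers of smooth muscle averaged 6.77 to 7.76 in Intact and 6.95 to 7.50 in SVX/VAS. Those of steroid-making ovarian cells averaged 4.34 to 4.50 in Intact and 4.22 to 4.43 in SVX/VAS, those of sperm and male glands 4.31 to 4.38 in Intact and 4.32 to 4.39 in SVX/VAS. Those of T, B and NK cells averaged 4.28 to 4.49 in Intact and 4.27 to 4.31 in SVX/VAS, and those of adipocytes 5.14 to 5.33 in Intact and 5.13 to 5.33 in SVX/VAS. Macrophage markers averaged 6.18 to 6.74 in Intact and 6.23 to 6.67 in SVX/VAS, and endothelial markers 5.44 to 6.14 in Intact and 5.82 to 6.14 in SVX/VAS. Among the neutrophil markers, Ltf, which uterine epithelium also makes, had means of 12.95 in Intact and 12.82 in SVX/VAS, and the other 11 averaged 4.89 to 5.19 in Intact and 4.77 to 4.90 in SVX/VAS. None of these 10 lists had a member called by limma or past the submitters' criteria. At most 3 members of a list, in neutrophils (12 markers), had an unadjusted limma p under 0.05, beside 11.9% of all clusters.

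All 10 stromal markers had a lower mean after Intact mating (median log2 -0.24), as did 7 of 8 endothelial markers (median log2 -0.17), while 10 of 12 neutrophil markers had a higher one (median log2 0.11). The neutrophil list was not uniform. Of its 3 members with an unadjusted limma p under 0.05, 2 were higher and 1, Ly6g, was lower (log2 -0.37). Over all clusters the shares were 5.13% higher and 6.78% lower. For Ly6g all 4 Intact arrays lay below all 4 SVX/VAS arrays, as in 4.81% of all clusters. The same held for Krt18 of the epithelial list (log2 -0.41) and Lipe of the adipocyte list (log2 -0.40). The opposite separation, found in 3.37% of all clusters, held for Prm1 of the sperm list (log2 0.39) and Synm of the smooth muscle list (log2 0.18). For the stromal and endothelial lists 0 members had an unadjusted limma p under 0.05 (11.9% of all clusters did), and the groups overlapped for every member. Between pools, the epithelial average was highest on Intact array 4 (10.05) and lowest on Intact array 3 (9.71), the same arrays that were highest and lowest for the 9 genes. That average used 1 cluster per gene, and Cdh1 and Krt18 each had a second one that ran the other way. The second clusters read 9.01 (Cdh1) and 8.36 (Krt18) on Intact array 3, against 7.91 and 7.20 on Intact array 4. In whole tissue, fewer cells of a type and less RNA per cell cannot be told apart. The part of cell makeup in the sterol gene values was not tested.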

How the data were processed

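Endometrial RNA from 2 groups of 4 pooled arrays was analysed. The log2 expression values were deposited by the authors, who used RMA background correction, GC content correction and mean probe summarization in Partek 6.6, per the series text; normalization between arrays and the annotation build were not stated there. The authors' deposited comparison table gives a p-value, a ratio of Intact over SVX/VAS and further scores (signed fold change, F and sums of squares), per the file headers. Its log2 ratios equalled the difference of group means in the value table for all 41345 clusters, to within 5.95e-05.

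All clusters were fitted with limma 3.58.1 in R 4.3.3 (lmFit, eBayes, Benjamini-Hochberg, two-sided). SEs and 95% intervals use the residual SD with 6 degrees of freedom. The methods' t-test gave the unadjusted p of the submitters' criteria. The fit was checked on simulated data.

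A gene was represented by its lowest cluster ID. Members and lists were chosen with earlier results of these data known. Named genes were all 9 members, fixed pathway genes, genes of the mevalonate, post-squalene and SREBP lists past a call rule, and up to 3 per other list by p. The 8 clusters with a gene symbol most correlated with the members within groups were also named. The number of arrays limits precision. The labels name no batch, and none was examined. The pools are called independent per the series text, so p-values measure the spread between pools. Same-numbered arrays are not stated to be pairs. Some genes counted in the lists are not reported here by name.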

Additional observations from a re-analysis of the deposited data

Results flagged for a closer look

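Cyp51 on SVX/VAS array 1 read 6.33, apart from the other 3 SVX/VAS arrays (6.68, 6.73 and 6.75), with a gap of 0.839 of the range of its group, above Dixon's 95% critical value for 4 samples. It was 1 of 18 combinations of gene and group examined, and chance marks about 1 in 20. Without that array Cyp51 remained higher after Intact mating, since the 4 Intact arrays lay at 7.70 to 8.86.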

How the results depend on the processing

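The log2 fold change of each of the 9 genes kept its sign and moved by less than the SD between replicates under the 10 settings that can move it. These are quantile normalization, median centring and each array left out. The ranges were 1.26 to 1.55 for Sc4mol, 1.41 to 1.80 for Cyp51 and -0.24 to -0.03 for Ebp. Leaving out 1 of 4 arrays cannot move a group mean by as much as that group's SD. Nor could it change the sign for the 7 genes whose groups do not overlap. Nothing is therefore read from these outcomes where an array was left out. The median over the 9 ran from 0.82 to 1.03, and 7 of the 9 met the submitters' criteria in each of the 10 settings. Counts of limma calls depended on the setting. The methods' t-test and the authors' deposited table each called 10 clusters, 0 of the 9 genes and 1 gene of the 5 other pathway lists. In each, 7 of the 9 genes and 12% of all clusters had an unadjusted p under 0.05. The main limma fit called 34, 1 and 6. An eBayes trend called 204 clusters, 5 of the 9 and 10 listed genes. Quantile normalization called 54 clusters and 5 of the 9. Testing only clusters above the median level called 358, 7 and 13, and testing only clusters with 1 symbol called 234, 7 and 12, both with fewer clusters to adjust over. These filters left 503 and 346 clusters past the submitters' criteria in place of 768. Leaving out single arrays gave 2 to 50 clusters, 0 to 5 of the 9, 1 to 6 listed genes and 661 to 970 clusters past the criteria. The median correlation over pairs of the 9 ran from 0.34 to 0.73 when single arrays were left out, and was 0.26 without Intact arrays 3 and 4. With the replicate number as a block, limma called 0 clusters, 0 of the 9 and 0 listed genes (4620 clusters, 8 of the 9 and 24 listed genes at an unadjusted p under 0.05). Same-numbered arrays did not deviate together (correlations of 0.07, 0.03, -0.02 and -0.03 for replicates 1 to 4, 2 of 8 arrays best matched by their own number), so the numbers were not taken to pair the arrays. Where no cause is given, the cause was not tested. With 4 arrays a group, limma adjusted p-values of the 9 genes near 0.05 decide the counts.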

Other observations

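Fatty acid synthesis genes, which SREBP-1 is known to drive, were also measured. So was a mixed list of genes linked to LXR, the sensor of oxidised sterols, and to the handling and efflux of sterols, called the LXR list. In the fatty acid list of 13 genes, 0 were called by limma (6 at an unadjusted p under 0.05, all higher, beside 5.13% of all clusters), and 3 met the submitters' criteria on the higher side (0.733% of all clusters). Scd2, a stearoyl-CoA desaturase, was 1.78-fold higher (log2 0.83, SE 0.13, limma adjusted p = 0.058), Elovl6, a fatty acid elongase, 1.57-fold higher (limma adjusted p = 0.073) and Acaca, the acetyl-CoA carboxylase, 1.40-fold higher (limma adjusted p = 0.10). Scd1, singled out after its value was seen because it is the third gene past the criteria, was 1.58-fold higher (limma adjusted p = 0.17). For these 4 all 4 Intact arrays lay above all 4 SVX/VAS arrays, as for 6 of the 13 genes in the list and 3.37% of all clusters.

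The LXR list ran the other way for the genes that differed most. Of its 12 genes, 0 were called by limma (2 at an unadjusted p under 0.05, both lower, beside 6.78% of all clusters), and 1 met the submitters' criteria, on the lower side, which 1.12% of all clusters met. Abca1, which exports cholesterol from cells, read 8.22, 8.56, 8.65 and 8.29 on the Intact arrays, against 9.13, 9.03, 9.14 and 8.87 on the SVX/VAS arrays, 1.52-fold lower after Intact mating (log2 -0.61, SE 0.12, limma adjusted p = 0.12). Mylip, which encodes a ubiquitin ligase, was 1.35-fold lower (log2 -0.43, SE 0.07, limma adjusted p = 0.14). For both genes all 4 Intact arrays lay below all 4 SVX/VAS arrays, as in 4.81% of all clusters. Ch25h, which makes an oxidised sterol, was 1.16-fold higher (limma adjusted p = 0.53), with overlapping groups.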
